A study of Mus musculus with 5 samples.

Results

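Endothelial cells line the inside of blood vessels, and in the dorsal root ganglion they separate the blood from the sensory neurons and their satellite glia. The vessels of sensory ganglia are known to be more permeable than those of the brain, although their endothelium also forms tight junctions. Arteries, capillaries and veins carry endothelium with partly different genes, and pericytes and smooth muscle cells, together called mural cells, wrap it from outside. The cells described here are the 56 that the deposited annotation calls endothelial, out of 3352 cells in all, or 1.67%. The annotation was used as it stands. The remaining cells were 249 satellite glia and 3047 neurons of 12 types.

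All cells came from lumbar dorsal root ganglia of 5 wild type C57BL/6 mice, 3 males and 2 females aged 18 weeks. The mice were untreated and formed a single group. Cell types of the same 5 mice were set against each other, and the main gene tests did not pair cell types by mouse. The ganglia were dissociated with enzymes, filtered and run on a Percoll gradient, and single cells were captured in droplets with the 3′ Chromium assay, which tags every captured transcript with a unique molecular identifier (UMI). The 5 libraries are called Sample1 to Sample5 because their 70 counts of cells per type equalled those under these names in a supplement of the study. No library was assigned to a sex. The libraries held 164 to 1370 cells and 13050375 to 88886919 UMIs. They shared 7 cell barcodes, carried by 14 cells of which 0 were endothelial.

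The annotation held 3, 16, 16, 14 and 7 endothelial cells in the order of Sample1 to Sample5. Their share of all cells was 1.83% in Sample1 (exact Clopper-Pearson 95% interval 0.379 to 5.25%), 2.97% (1.71 to 4.78%) in Sample2, 3.38% (1.94 to 5.42%) in Sample3, 1.74% (0.954 to 2.90%) in Sample4, and for Sample5 0.511% (0.206 to 1.05%). Sample5 was the lowest, and its interval ended below those of Sample2 and Sample3. These intervals cover counting error only. Of endothelial cells and satellite glia counted jointly, endothelial cells made up 13.6%, 23.2%, 16.7%, 15.7% and 24.1% in the same order, so that Sample5 was then the highest. The intervals of this share overlapped between all libraries, from 2.91 to 34.9% in Sample1 and from 10.3 to 43.5% in Sample5. Per endothelial cell there were 4.63 ± 1.37 satellite glia (SD, n = 5 libraries).

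Endothelial cells held few UMIs. The median per endothelial cell was 19127, 18723, 16435, 13859.5 and 15275 UMIs in Sample1 to Sample5. The medians of satellite glia were 20118, 21150, 17407, 16511 and 15526, and those of neurons lay between 57409 and 82821. In every library the endothelial median was below both. The ratio to satellite glia was 0.919, a log2 ratio of -0.12 ± 0.09 (SD, n = 5), and the ratio to neurons was 0.242, a log2 ratio of -2.04 ± 0.11 (SD, n = 5). Both were lower in 5 of 5 libraries (exact two-sided sign-flip test, p = 0.0625 for each, the smallest p that 5 libraries allow).

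The UMIs per cell ended sharply at a lower limit. The cell with the fewest UMIs held 17068, 16752, 13784, 13103 and 13427 UMIs in Sample1 to Sample5, which was between 7.38 and 9.11% of the library's 99th percentile. Of the endothelial cells, 45 of 56 (80.4%) lay within 25% above their library's lowest cell. The same held for 129 of 249 satellite glia (51.8%) and for 47 of 3047 neurons (1.54%). Cells below these limits are not analysed here, and the part of the limit in the shares and levels was not tested.

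**Figure D1:**
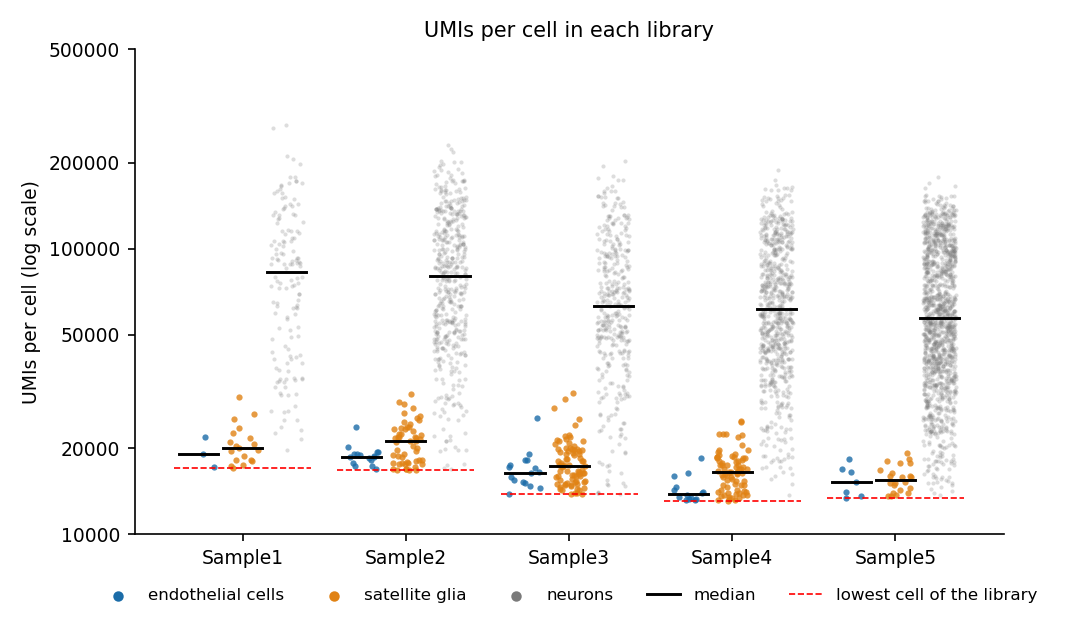
UMIs per cell on a log scale in each of the 5 libraries, with 1 point per cell, bars at the median of endothelial cells, satellite glia and neurons, and a dashed red line at the cell with the fewest UMIs of the library. The endothelial cells crowd just above the line, with medians from 13859.5 to 19127 UMIs, and the neurons lie mostly far above it.

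After each cell was thinned to 13000 UMIs, which left out 0 cells, the median number of genes detected per endothelial cell lay between 3062 and 3182 in the 5 libraries. This was 0.944 times the number in satellite glia and 0.854 times that in neurons, lower in 5 of 5 libraries for both (exact two-sided sign-flip test, p = 0.0625). Mitochondrial transcripts took 2.76, 4.54, 3.04, 2.74 and 3.09% of the UMIs of the median endothelial cell, with Sample2 the highest. The medians of satellite glia lay between 5.61 and 6.55%, above every endothelial one. The ratio was 0.522 to satellite glia and 0.675 to neurons, again lower in 5 of 5 libraries (exact two-sided sign-flip test, p = 0.0625).

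Genes were compared on UMIs summed per library, between endothelial cells and all other cells, and between endothelial cells and satellite glia, the other non-neuronal type. Levels are counts per 1000000 UMIs (CPM), the UMIs of a gene scaled to the total of the summed cells. They were not divided by gene length, since 1 UMI marks 1 transcript whatever its length. A gene was called with an adjusted p under 0.01 in edgeR's quasi-likelihood test, at least a 2-fold difference and, on the higher side, UMIs in 25% or more of the cells. Against all other cells, 11838 genes had enough counts to be tested, of which 1798 were higher in endothelial cells (15.2%) and 3923 lower (33.1%). Against satellite glia, 4046 were tested, of which 869 were higher (21.5%) and 901 lower (22.3%). The counts of called genes in each list below are to be read beside these shares of all genes tested. A gene with few counts in 1 group could be tested only if the other group held enough, so counts within a list describe its tested genes only. The authors had named the cell types from these same counts, so the calls describe how the endothelial sums differ and do not test that the type exists. The median log2 fold change over all genes tested was -0.83 against all other cells and -0.05 against satellite glia. The size factors of DESeq2 moved the log2 fold changes by a median of -0.26 and -0.12, and log2 fold changes below are given without that shift.

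Cldn5, Ly6c1, Pecam1, Flt1 and Bmx served as markers of the endothelial name. The authors named the types from these same counts, so the marker levels are no independent check of the name. Cldn5 encodes claudin-5, the main claudin of endothelial tight junctions, and lies on chromosome 16 from 18776847 to 18778262 of GRCm38.p6. Ly6c1, for a small membrane protein with a lipid anchor, is on chromosome 15 from 75044018 to 75048920. Pecam1, the adhesion molecule CD31, is on chromosome 11 from 106654213 to 106715281. Flt1, a receptor of vascular endothelial growth factor (VEGF), spans chromosome 5 from 147561604 to 147726438, and Bmx, a Tec family kinase, chromosome X from 164192842 to 164258193. The RefSeq promoter table of GRCm38.p6 held 4 of the 5, all but Pecam1. Their sequences are shown because these genes served as markers of the annotated name, and each runs 5′ to 3′ on the strand of the gene over the 250 bases before a start site. Capitals mark AGGAAG or its reverse complement CTTCCT, a core of the motif bound by ETS factors such as ERG and FLI1.
Cldn5, chr16:18776597-18776846, plus strand: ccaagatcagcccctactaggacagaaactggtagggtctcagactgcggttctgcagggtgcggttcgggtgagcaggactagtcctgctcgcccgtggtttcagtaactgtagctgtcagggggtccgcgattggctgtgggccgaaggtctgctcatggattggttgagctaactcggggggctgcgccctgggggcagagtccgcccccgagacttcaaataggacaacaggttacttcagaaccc
Flt1, chr5:147726012-147726261, minus strand: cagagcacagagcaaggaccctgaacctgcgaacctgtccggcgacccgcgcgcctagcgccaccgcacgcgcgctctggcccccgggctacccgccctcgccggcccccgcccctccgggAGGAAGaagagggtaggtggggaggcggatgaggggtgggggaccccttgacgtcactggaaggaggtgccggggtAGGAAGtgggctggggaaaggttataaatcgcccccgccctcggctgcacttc
Ly6c1, chr15:75048664-75048913, minus strand: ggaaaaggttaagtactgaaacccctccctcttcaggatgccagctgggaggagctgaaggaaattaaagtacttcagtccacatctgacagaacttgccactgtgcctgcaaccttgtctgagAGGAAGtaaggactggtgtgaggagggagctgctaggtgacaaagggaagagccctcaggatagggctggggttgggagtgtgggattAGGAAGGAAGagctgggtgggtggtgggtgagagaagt
Bmx, chrX:164258194-164258443, minus strand: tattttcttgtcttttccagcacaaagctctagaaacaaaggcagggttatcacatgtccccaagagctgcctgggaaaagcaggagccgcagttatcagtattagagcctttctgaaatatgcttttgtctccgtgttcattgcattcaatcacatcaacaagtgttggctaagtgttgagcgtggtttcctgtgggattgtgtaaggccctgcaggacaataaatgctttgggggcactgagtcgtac
The window of Flt1 held 2 matches and that of Ly6c1 held 3, the last 2 overlapping, all on the strand of the gene. The windows of Cldn5 and Bmx held 0, and so did that of another RefSeq start of Ly6c1. Of all 32851 windows of this length in the table, 29.5% held a match, so a match in some of the 4 is a description only. RefSeq models of Flt1 and Ly6c1 also begin upstream of the starts used, so these windows overlap such models.

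Cldn5 had 5645, 3262, 4217, 5377 and 3077 CPM in the endothelial cells of Sample1 to Sample5. Satellite glia had 15.5 ± 27.8 CPM and neurons 0.374 ± 0.194 (SD, n = 5), and the lowest endothelial library was above the highest of either. The log2 fold change was 12.41 against all other cells (standard error 0.53) and 8.05 against satellite glia (standard error 0.69). Ly6c1 had 2574, 2514, 2223, 3605 and 3077 CPM, against 9.48 ± 12.8 in satellite glia (SD, n = 5). Sample4 was the highest, and every library was far above the glial ones, with a log2 fold change of 8.33 (standard error 0.58).

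Pecam1 had 721, 519, 428, 501 and 453 CPM, against 0.890 ± 1.99 in satellite glia and 0.700 ± 0.0973 in neurons (SD, n = 5). Sample1 was the highest for it, and its log2 fold change was 9.45 against all other cells (standard error 0.19, adjusted p = 1.2e-15 in edgeR) and 8.72 against satellite glia (standard error 0.40, adjusted p = 1.2e-11 in edgeR). These p-values do not test the name, since the types were named from the same counts. Flt1 had 429, 635, 546, 616 and 471 CPM, with log2 fold changes of 11.49 (standard error 0.32) and 7.33 (standard error 0.47). Bmx had 17.2, 56.2, 66.5, 44.7 and 64.7 CPM. Sample1, with its 3 cells, was the lowest for Bmx, and 0 UMIs of this gene were found in all the other cells. Taking 3 UMIs over the group as the limit that a count of 0 allows, Bmx was at least 4119-fold higher than in all other cells and at least 84.2-fold higher than in satellite glia. For all 5 genes the endothelial libraries lay above those of all other cells without overlap, which held for 15.4% of all genes tested, while 42.6% had every endothelial library below the others. Against satellite glia these shares were 21.4 and 29.1% of the genes tested.

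**Figure D2:**
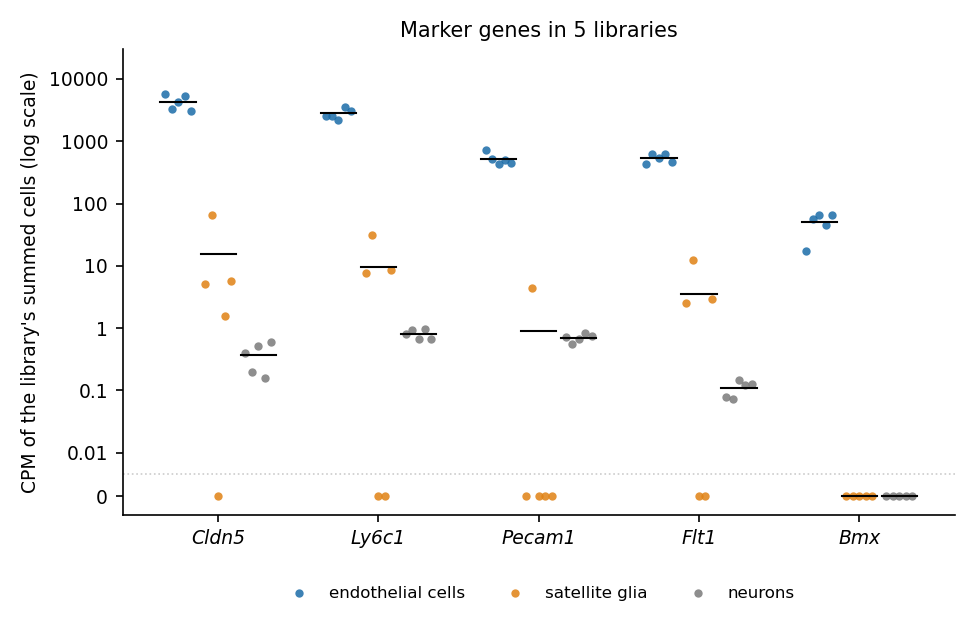
CPM of the 5 marker genes on a log scale, with 1 point per library for the summed endothelial cells, satellite glia and neurons, black bars at the mean of the 5 libraries, and counts of 0 drawn in a row of their own at the bottom. The endothelial points of each gene lie above all others, and Bmx is at 0 in satellite glia and neurons.

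Cell by cell, 55 of the 56 endothelial cells had UMIs of Cldn5, Ly6c1, Pecam1 and Flt1 together, and 28 cells had UMIs of all 5 genes. The remaining cell, in Sample5, had 0 UMIs of Cldn5 and Bmx. Of 249 satellite glia, 241 had 0 of the 5 genes and 5 had at least 3 of them. Of 3047 neurons, 2748 had 0 and 5 had at least 3. At 13000 UMIs per cell a Cldn5 UMI was expected in 98.2% of endothelial cells, 2.45% of satellite glia and 0.435% of neurons, and without thinning it was found in 98.2, 2.81 and 1.67%. A Bmx UMI was expected in 45.1% of endothelial cells and found in 28 of 56.

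A list of 23 genes known across most endothelium was high throughout. All 23 were tested against all other cells and were higher, with a median log2 fold change of 10.02. Against satellite glia 21 were tested and 20 were higher, with a median of 7.89, or 7.58 with Tek, which had 0 UMIs in glia, set at its bound of at least 87.4-fold. Each endothelial cell had UMIs of 17 to 23 of the 23 genes, with a median of 21. Summed over the list, endothelial cells had 14783 to 20505 CPM in the 5 libraries, satellite glia 129 to 377 and neurons 69.3 to 102.

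Cdh5, for VE-cadherin of the adherens junctions, had 892, 999, 779, 809 and 739 CPM. Emcn, for the sialoglycoprotein endomucin, had 738, 642, 635, 938 and 859, and Eng, for endoglin, a co-receptor of bone morphogenetic proteins, had 772, 559, 502, 660.3 and 527. For these genes the 5 libraries lay close together, and no glial library came near. The gene of this list not called against satellite glia was Ramp2, for a partner of the adrenomedullin receptor, with 161 ± 45.00 CPM in endothelial cells and 146 ± 43.2 in satellite glia (SD, n = 5), with overlap. Neurons had 0.674 ± 0.176 CPM of it. Clec14a, a C-type lectin with UMIs in 14 of 56 cells, just at the 25% limit, was called against all other cells at 10.02, but not without Sample1 (10.07), Sample3 (9.70) or Sample4 (9.61).

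Among the called genes with the largest differences, Cd93, a receptor in endothelial adhesion and angiogenesis, had 1064, 1188, 606, 963 and 795 CPM and a log2 fold change of 12.42 against all other cells (standard error 0.36). Robo4, the endothelial Roundabout receptor, had 132 ± 32.97 CPM (SD, n = 5) and 12.06 on the same scale (standard error 0.38). Gimap4 and Gimap5, GTPases better known from lymphocytes, had 74.7 ± 26.9 and 194 ± 28.5 CPM (SD, n = 5). Several genes had 0 UMIs in satellite glia. Of these Nostrin, which binds endothelial nitric oxide synthase, was at least 138-fold higher, Ch25h, cholesterol 25-hydroxylase, at least 134-fold, Rasgrp3, an exchange factor for Ras, at least 123-fold and Gimap4 at least 119.8-fold.

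Among the genes most below all other cells, several had 0 endothelial UMIs, such as Syt5, a synaptotagmin of neurons, at least 57.9-fold lower, and Scn11a, a sodium channel of nociceptors, at least 51.1-fold lower. Among those most below satellite glia were Cdh11, a cadherin, at least 22.3-fold lower, the predicted gene Gm19705, at least 17.8-fold, and Ctsk, cathepsin K, at least 17.02-fold.

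The most abundant transcripts, mitochondrial and ribosomal protein genes left out, were the long noncoding RNA Malat1, at 62816 ± 19835 CPM (SD, n = 5), and the metallothioneins Mt1 and Mt2, which bind zinc and copper, at 13116 ± 2580 and 8487 ± 1659. Mt1 was not called against satellite glia, which had 10743 ± 1172 CPM (SD, n = 5). Mt2 was called there at 1.03, but stood at 0.99 without Sample2, 0.86 without Sample3, 0.91 without Sample4 and 0.93 with DESeq2, under the 2-fold limit. Tm4sf1, for a membrane protein of endothelium, had 7927, 8025, 6786, 6678 and 7022 CPM and a log2 fold change of 4.73 against satellite glia (standard error 0.22). Igfbp7, for a secreted protein that binds insulin-like growth factors, had 7327, 5604, 5786, 7288 and 7641 CPM. For both genes the 5 libraries were close together and above the highest glial one. Igfbp7 had 60.8 ± 60.99 CPM in satellite glia and 1.80 ± 1.03 in neurons (SD, n = 5).

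Hbegf, a heparin-binding growth factor of the EGF family, had 3037, 6130, 4767, 7318 and 4869 CPM, against 778 ± 183 in satellite glia (SD, n = 5). Sample1 was the lowest for Hbegf and still above every glial library. Actg1, gamma actin, had 5729 ± 1440 CPM, and Tmsb10 and Tmsb4x, thymosins that bind actin, had 5599 ± 1061 and 6954 ± 1110 (SD, n = 5). These 3 were not called against all other cells, and were higher than in satellite glia by 1.94, 3.40 and 1.08 on the log2 scale, the last with 0.91 without Sample3 and 0.98 with DESeq2.

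Transcription factors known from endothelium were next. Of 28 in the list, 27 were in the matrix, 21 were tested against all other cells and 20 were higher, with a median log2 fold change of 5.47. Against satellite glia 15 of 16 tested were higher, with a median of 5.83. Erg, an ETS factor that maintains endothelial genes, had 257, 208, 247, 129 and 111 CPM and UMIs in 49 of 56 cells. Satellite glia held 2 UMIs of it, a ratio of 444 (exact counting interval 121 to 3698). Fli1, another ETS factor, had 83.3 ± 18.5 CPM, Ets1 228 ± 71.5 and Ets2 128 ± 18.6 (SD, n = 5). Sox17, a SOX factor of arterial endothelium, had 583, 334, 318, 377 and 222 CPM and a log2 fold change of 7.07 against satellite glia (standard error 0.50). Sample5 was the lowest library for Erg and Sox17, and no library of either overlapped with glia.

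Klf2 and Klf4, which respond to blood flow, had 369.5 ± 91.4 and 438 ± 154 CPM (SD, n = 5), with log2 fold changes against satellite glia of 3.62 (standard error 0.33) and 2.29 (standard error 0.25). Epas1, the hypoxia-inducible factor HIF-2alpha, was higher than in all other cells by 5.23 but was not called against satellite glia, with 440.5 ± 58.6 CPM against 259 ± 23.6 (SD, n = 5). Ebf1 was the gene not called against all other cells, with 115 ± 17.6 CPM in endothelial cells and 176 ± 8.44 in neurons (SD, n = 5), and it was higher than in satellite glia by 3.91. Lef1, which acts with beta-catenin in Wnt signalling, had 0, 59.5, 66.5, 79.4 and 73.9 CPM. The 0 in Sample1 rests on 3 cells and 58279 UMIs. Tbx3 and Foxc1 lost their calls against all other cells without a library, Tbx3 at 2.05 with 1.72 without Sample1 and 1.55 without Sample2, and Foxc1 at 5.89 with 5.71 without Sample2. Foxq1, Foxf2, Tal1 and Lyl1 had too few counts to be tested, with UMIs in 10, 9, 18 and 2 cells.

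Most tested arterial genes were higher than in the other cells. Of the 18 arterial genes, 14 were tested against all other cells, 10 were higher and 1, Stmn2, a gene of neurons, was lower, with a median of 7.80. Against satellite glia 7 of 10 were higher and 2 lower, with a median of 3.95. The lower ones were Fbln5 and Fbln2, for fibulins of elastic fibres, at 10.9 ± 13.4 and 16.4 ± 17.4 CPM in endothelial cells and 729 ± 77.5 and 450.3 ± 83.2 in satellite glia (SD, n = 5). Edn1, for the vasoconstrictor endothelin-1, had 154, 165, 255, 134 and 194 CPM, with UMIs in 33 of 56 cells. Dll4, a Notch ligand of arterial and sprouting endothelium, had 103, 89.3, 92.3, 169 and 102 CPM, with Sample4 above the others. Both were above glia in every library. Cxcl12, a chemokine, had 617 ± 167 CPM (SD, n = 5), higher than in satellite glia by 7.61 on the log2 scale (standard error 0.39). Gja4, for connexin 37, had UMIs in 21 cells. Gja5, for connexin 40 of arteries, had UMIs in 0 of 56 cells, which allows a share of cells with a UMI of up to 5.36% and sets no limit on cells that express it.

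Of the 15 capillary genes, 13 were tested against all other cells, 9 were higher and 1, the water channel gene Aqp1, lower, with a median of 5.75. Against satellite glia 8 of 11 were higher and 1, the lactate transporter Slc16a1, lower, with a median of 5.61. The call of Slc16a1, at -1.09, did not hold without Sample2 (-1.09), Sample4 (-0.97) or Sample5 (-1.09). Car4, a membrane-bound carbonic anhydrase, had 343, 202, 199, 258 and 609.8 CPM and UMIs in 45 cells. Slco1a4, an organic anion transporter of the blood-brain barrier, had 377, 281, 166, 268 and 268 CPM and UMIs in 53 cells. Every library was far above glia for both, and Sample5 had the most Car4. Gpihbp1, which anchors lipoprotein lipase to capillaries, had 375 ± 84.7 CPM (SD, n = 5). Mfsd2a, a lipid transporter that limits transcytosis in brain endothelium, had 186 ± 82.5 CPM against 109.7 ± 27.1 in satellite glia (SD, n = 5), with overlap, and was not called there. Lpl, for lipoprotein lipase itself, had 0 endothelial UMIs, and Cd36, a fatty acid receptor, had UMIs in 2 cells.

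Of the 15 venous genes 14 were in the matrix. Against all other cells 10 were tested, 7 were higher and 1, the chemokine-binding receptor gene Ackr1, lower, with a median of 7.10, and against satellite glia 4 of 6 were higher and 0 lower, with a median of 5.47. Plvap, for the protein of the diaphragms of fenestrae and caveolae, had 206, 215, 210.5, 124 and 471 CPM. Sample5 was above the others, and 26 of its 51 Plvap UMIs were in a single cell, without which it had 269 CPM. Vwf, for von Willebrand factor, had 51.5, 69.5, 81.2, 74.5 and 55.4 CPM, with UMIs in 31 cells. Nr2f2, for COUP-TFII of venous identity, had UMIs in 16 cells and 37.02 ± 28.6 CPM against 42.6 ± 19.98 in satellite glia (SD, n = 5), with overlap. Selp, for P-selectin, and Sele, for E-selectin, had UMIs in 4 and 4 cells.

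Lymphatic genes were rare. Of 8, 6 were in the matrix, and 1 of 4 tested was higher than in all other cells and 1, Thy1, lower, while against satellite glia 0 of 2 were higher and 1, Pdpn, lower. The median against all other cells was -1.98, or -0.40 with Lyve1, which had 0 endothelial UMIs, at its bound. Prox1, the factor that sets lymphatic identity, had 2 UMIs in 1 of 56 cells. Flt4, for VEGF receptor 3, was the higher gene, with 85.8, 29.8, 25.8, 34.8 and 9.24 CPM and UMIs in 21 cells. Sample1 was the highest for it, and satellite glia had 0 UMIs. Flt4 is also known from blood vessel endothelium. Pdpn, for podoplanin, had 3 endothelial UMIs and 179.7 ± 27.1 CPM in satellite glia (SD, n = 5).

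**Figure D3:**
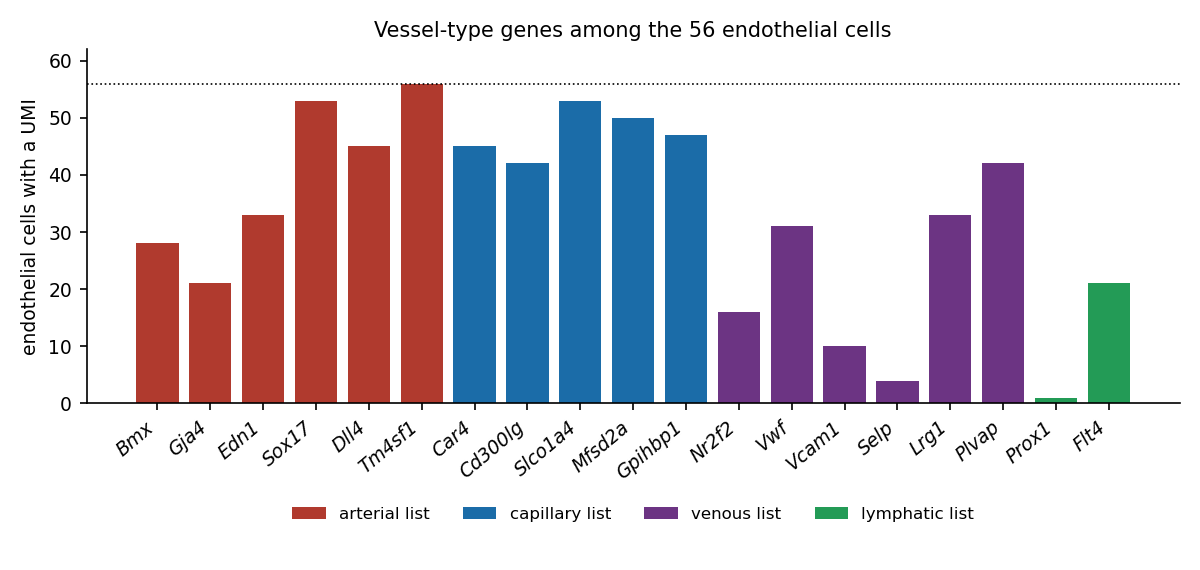
Number of endothelial cells with a UMI, out of 56 (dotted line), for selected genes of the arterial, capillary, venous and lymphatic lists. Sox17 and Slco1a4 were found in 53 cells, Bmx in 28 and Plvap in 42, while Selp was found in 4 and Prox1 in 1.

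UMIs of Slco1a4 and Plvap, known from barrier and from fenestrated endothelium, were found together in 39 cells. Plvap was found alone in 3 cells and Slco1a4 alone in 14. Since most cells had Slco1a4, most cells with Plvap would hold both even if the genes were unrelated. Of the 28 cells with a Bmx UMI, 22 also had Edn1, at a mean of 4.64 UMIs, and of the 28 without, 11 had it, at a mean of 1.64. Plvap was found in 18 of the cells with Bmx, at a mean of 1.93 UMIs, and in 24 of those without, at a mean of 5.57. Car4 was found in 21 and 24 of these cells. Gja4, which like Edn1 is in the arterial list, was found in 11 and 10, at means of 1.39 and 1.75 UMIs. The venous genes Vwf and Nr2f2 were found in 15 and 16 and in 7 and 9. The median of UMIs per cell was 16720 with Bmx and 17335 without. A gene can be expressed without a UMI at this depth, and these counts over cells of 5 libraries carry no test.

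The cell of Sample5 with 0 UMIs of Cldn5 and Bmx also differed in the genes of vessel types. It had UMIs of 19 of the 23 pan-endothelial genes and 15275 UMIs in all. It had 11 of the 14 venous genes, the most of any cell, with 26 UMIs of Plvap, 13 of Icam1, 11 of Vcam1 and 9 of Selp, the last 3 for adhesion molecules that bind leukocytes. Of the venous genes Nr2f2 had 0 UMIs and Vwf 1. It had 3 of the 15 capillary genes, the fewest of any cell, with 0 UMIs of Car4 and Slco1a4. It had 5 of the 18 arterial genes with 89 UMIs, 0 of them of Sox17 and Dll4, but 30 of Mgp and 5 of Edn1. It was also the cell with the most genes of the cell cycle list, 9 of 13 with 23 UMIs, against at most 2 genes in any other endothelial cell. It was the only endothelial cell with 3 or more leukocyte genes, 5 of 12 with 123 UMIs, of which 93 were of Cd74, for the invariant chain of MHC class II, 5 of Aif1, a macrophage gene, and 2 of Ptprc, for the leukocyte antigen CD45. It also held 18 UMIs of Dcn, a fibroblast gene. Whether this droplet held more than 1 cell was not tested.

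Junction, transport and VEGF receptor genes, which make the barrier and maintain the vessels, were mostly higher. Of 15 junction genes 9 of 12 tested were higher than in all other cells, of 15 barrier transport genes in the matrix 8 of 12, and of 17 VEGF and angiopoietin genes 11 of 15 with 1, Vegfb, lower. Abcb1a and Abcg2, efflux pumps of the blood-brain barrier, had 602 ± 116 and 729 ± 171 CPM (SD, n = 5), while Ocln, for occludin, and Slco1c1, a thyroxine transporter, had UMIs in 3 and 3 of 56 cells.

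In the Notch pathway neighbouring cells signal through membrane-bound ligands. Of 14 genes tested against all other cells 9 were higher and 1, Rfng, lower, with a median of 3.45. Against satellite glia all 5 genes tested were higher, with a median of 3.34, but 12 had too few counts to be tested. Of the 5, Mfng and Nrarp also had too few without the endothelial cells with 3 or more mural genes. Genes low in glia entered this test through their endothelial counts, so it says little about the list. Among the receptors, Notch1 had 498, 390.3, 380.3, 298 and 240.2 CPM against 128 ± 20.8 in satellite glia (SD, n = 5). The lowest endothelial library, Sample5, was above all glial ones, and the log2 fold change was 1.61 (standard error 0.18). Notch4, an endothelial receptor, had UMIs in 23 cells at 42.2 ± 19.3 CPM (SD, n = 5), and Notch2 had 0. Beside Dll4, the ligands Jag1 and Jag2 had 14.8 ± 12.8 and 7.22 ± 5.29 CPM (SD, n = 5) and were not called. Of the targets, Hes1 had 721, 695, 1041, 248 and 333 CPM. Sample4 and Sample5 were well below the others, and all were above glia with a log2 fold change of 3.34 (standard error 0.47). Hey1 was higher than in all other cells, at 40.8 ± 15.04 CPM (SD, n = 5), and had too few counts to be tested against satellite glia. Mfng and Lfng, which modify Notch receptors, had 43.6 ± 9.16 and 29.1 ± 7.99 CPM (SD, n = 5).

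In the pathway of bone morphogenetic proteins and TGF-beta, 25 of 26 genes were in the matrix. Of 23 tested, 13 were higher and 2 lower than in all other cells, with a median of 2.12, and 10 of 15 were higher and 1 lower than in satellite glia, with a median of 1.59. Acvrl1, the endothelial receptor ALK1, had 240.2, 241, 222, 263 and 222 CPM, with little spread between libraries, and a log2 fold change of 6.89 against satellite glia (standard error 0.36). Bmpr1a, the receptor ALK3, was lower in both comparisons, with 3.72 ± 4.11 CPM against 118 ± 15.7 in satellite glia (SD, n = 5). Id1, a target of the pathway, had 1870, 1803, 2079, 2393 and 2042 CPM. All 5 libraries lay above glia, with a log2 fold change of 4.18 (standard error 0.27). Id3, a related target, had 2682 ± 649 CPM and was not called against satellite glia, at 1775 ± 331 (SD, n = 5). The inhibitory Smad6 and Smad7 had 48.2 ± 12.1 and 357 ± 50.1 CPM, and the ligand Tgfb1 177 ± 28.9 (SD, n = 5). Bmpr2, called against satellite glia at 1.18, was not without Sample1 (1.06) or Sample3 (0.74). The lower call of Smad9 against all other cells, on 1 endothelial UMI, did not hold without Sample2 (-2.92) or Sample3 (-2.97).

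The Wnt and norrin pathway maintains the barrier in brain and retina. Of 13 genes tested against all other cells 7 were higher and 1 lower, with a median of 4.12. Against satellite glia 3 of 4 tested were higher, with a median of 2.65, but 15 had too few counts to be tested. Tspan12 and Tcf7l2 also had too few there without the endothelial cells with 3 or more mural genes. The receptor Fzd4 had 35.5 ± 13.9 CPM, its partner Tspan12 52.8 ± 16.8 and the target Axin2 31.2 ± 12.6 (SD, n = 5). Nkd1, another target, had 51.5, 43.00, 48.00, 94.3 and 64.7 CPM. Sample4 was the highest, and the log2 fold change against satellite glia was 4.04 (standard error 0.43). The co-receptors Adgra2 and Reck had UMIs in 4 and 5 cells. Of the ligands, Ndp, for norrin, had 0 endothelial UMIs and was at least 3.10-fold lower than in all other cells, Wnt7b had 0 and Wnt7a 1. Tcf7l2, a factor that acts with beta-catenin, was called against satellite glia at 1.25, with 0.80 without Sample3.

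Genes of vascular tone and clotting were higher than in all other cells in 11 of 15 tested and lower in 0, with a median of 4.10. Against satellite glia 6 of 8 were higher and 1 lower, with a median of 5.06. Procr, the endothelial protein C receptor, had 978, 407, 310.2, 263 and 268 CPM, and Thbd, for thrombomodulin, 360.3, 523, 137, 313 and 249. Sample1 had the most Procr and Sample3 the least Thbd, and no library of either overlapped with glia. Nos3, endothelial nitric oxide synthase, had 26.9 ± 10.97 CPM (SD, n = 5) with UMIs in 23 cells. Ednrb, an endothelin receptor of satellite glia, fell below glia, with 65.5 ± 43.7 against 550.3 ± 73.7 CPM (SD, n = 5), and its higher call against all other cells, at 2.34, did not hold without Sample2 (1.93) or Sample3 (2.52). Ece1, the endothelin-converting enzyme, was called against satellite glia at 1.09, with 0.90 without Sample2 and 0.76 without Sample3.

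Of 10 caveolae genes, 8 were higher and 1, Pacsin2, lower than in all other cells, with a median of 3.28, and 6 of 8 tested were higher and 1, again Pacsin2, lower than in satellite glia, with a median of 2.23. Cav1, for caveolin-1, had 343, 380.4, 192, 258 and 157 CPM against 7.38 ± 12.1 in satellite glia (SD, n = 5), without overlap. Pacsin2, which binds curved membrane, was at -1.40 against satellite glia. This call did not hold with the library as replicate block (-1.39) or without Sample1 (-1.27), Sample2 (-1.21) or Sample4 (-1.37). Against all other cells it did not hold without Sample2 (-1.24), and the same was true of the higher call of Ehd2 (2.59).

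Genes of antigen presentation by MHC class I and of the interferon response were high in endothelial cells and, for most, in satellite glia too. Of 28, 25 were in the matrix and tested against all other cells, and 23 were higher, with a median log2 fold change of 3.83. Against satellite glia 8 of 24 were higher and 1 lower, with a median of 0.67. Summed over the list, endothelial cells had 20579 to 33714 CPM, satellite glia 13523 to 20541 and neurons 885 to 1166. Isg15, a ubiquitin-like protein induced by interferon, had 2402, 1849, 2684, 3128 and 3215 CPM, against 2439 ± 459.6 in satellite glia and 10.4 ± 7.87 in neurons (SD, n = 5). Endothelial and glial libraries of Isg15 overlapped, and it was not called between them. B2m, the shared chain of MHC class I, had 4984 ± 1222 and 3825 ± 996 CPM in endothelial cells and satellite glia (SD, n = 5).

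Ly6e, in contrast, had 1561, 1628, 1278, 2041 and 1515 CPM in endothelial cells and 7.86 ± 5.87 in satellite glia (SD, n = 5). Every library was far above glia, with a log2 fold change of 7.78 (standard error 0.34). Irf7, a regulator of interferon genes, and H2-K1, an MHC class I heavy chain whose reads may be shared with near-identical relatives, were higher than in satellite glia by 2.08 (standard error 0.19) and 1.34 (standard error 0.20).

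Genes of immediate early response and heat shock were higher than in all other cells in 15 of 19 and lower in 0, with a median log2 fold change of 2.50, and higher than in satellite glia in 9 of 18 tested and lower in 0, with a median of 1.03. Their sum was 23473 to 30930 CPM in endothelial cells, 9916 to 15514 in satellite glia and 8602 to 10076 in neurons, so endothelial cells did not overlap with either. The part of the dissociation in these levels was not tested. Nfkbia, the inhibitor of NF-kB and one of its targets, had 4187, 3814, 4885, 4136 and 3714 CPM, with 604 ± 144 in satellite glia (SD, n = 5). It was higher by 2.89 on the log2 scale (standard error 0.19). Hspb1, a small heat shock protein, had 2145, 2355, 2267, 2512 and 1728 CPM, a difference of 4.73 (standard error 0.31). No library of either overlapped with glia. Fos and Jun had 1019 ± 514 and 1163 ± 251 CPM against 812 ± 219.9 and 1211 ± 287 in satellite glia (SD, n = 5), with overlap, and were not called there. Against satellite glia the call of Fosb did not hold without Sample2 (0.96), nor those of Egr1 (0.95) and Jund (0.89) without Sample3. Dnajb1, a heat shock co-chaperone, lost its call against all other cells without Sample3 (0.83).

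Of the 15 basement membrane genes, 9 of 11 tested were higher than in all other cells and 0 lower, with a median of 4.05, while against satellite glia 5 of 10 were higher and 2, Lamb1 and Nid1, lower, with a median of 0.73. Col4a1 and Col4a2, the main collagen IV chains, had 230.0 ± 75.4 and 197 ± 58.6 CPM against 78.5 ± 16.6 and 42.1 ± 7.57 in satellite glia (SD, n = 5). Hspg2, for perlecan, called against satellite glia at 1.19, was not without Sample1 (1.10) or Sample3 (0.71).

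Of the 15 lipid uptake genes, 3 of 11 tested were higher and 3 lower than in all other cells (27.3% each). Of all genes tested, 15.2% were higher and 33.1% lower. The median of the list was -0.96, or -0.03 with Lpl at its bound. Against satellite glia 2 of 6 were higher and 3 lower, with a median of -0.74, beside 21.5 and 22.3% of all genes tested. Scarb1, the receptor of high-density lipoprotein, had 210.3 ± 35.4 CPM against 44.4 ± 9.47 in satellite glia (SD, n = 5). Fabp5, a fatty acid binding protein, was lower in both comparisons, with 0, 146, 62.8, 24.8 and 64.7 CPM against 1294 ± 218 in satellite glia (SD, n = 5). All its endothelial libraries were below those of glia. Of 13 cell cycle genes 7 were tested against all other cells and 1 was higher (14.3%), near the 15.2% of all genes tested. It was Pcna, which also acts in DNA repair, at 279 ± 32.4 CPM against 77.4 ± 9.21 in satellite glia (SD, n = 5). Mki67, a marker of cycling cells, had 1 UMI in the 56 cells.

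**Figure D4:**
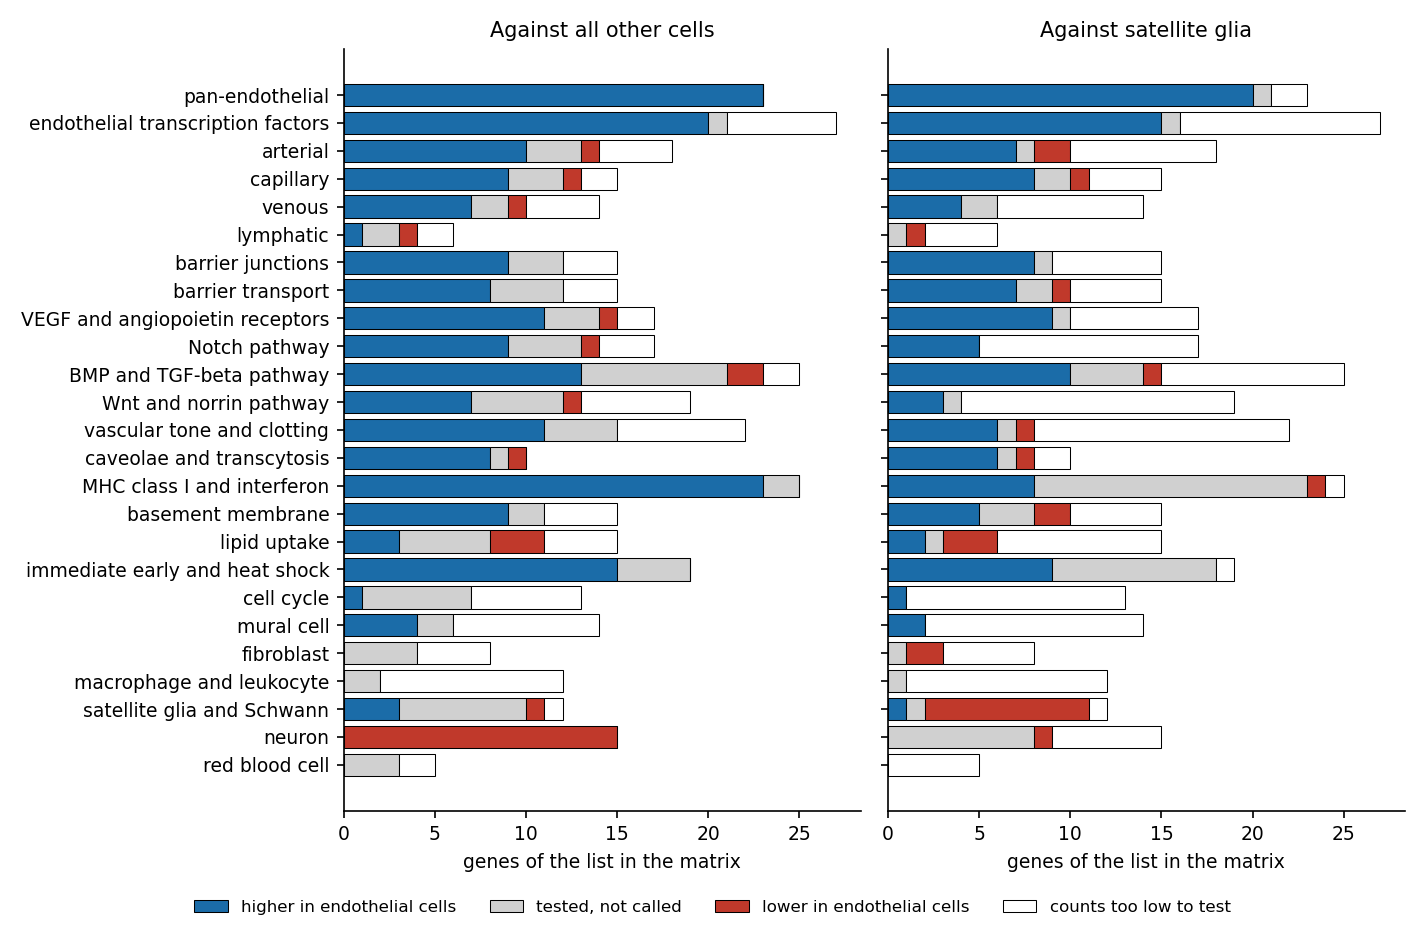
Number of genes of each list that were higher or lower in endothelial cells, tested without a call, or too low to be tested, against all other cells and against satellite glia. All 23 pan-endothelial genes were higher than in all other cells, while most of the MHC class I and interferon list was not called against satellite glia, with 8 of 24 tested genes higher.

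Genes of other cell types were found in some of the endothelial cells. Of 14 mural genes, 12 had endothelial UMIs, and 4 of 6 tested were higher than in all other cells. Kcnj8, for a potassium channel of pericytes, had 309, 33.1, 55.4, 54.6 and 55.4 CPM. Rgs5, a pericyte regulator of G proteins, had 257, 106, 66.5, 59.6 and 73.9, and Pdgfrb, the receptor that recruits pericytes, 103, 33.1, 11.1, 9.93 and 27.7. Sample1 was the highest for each. Summed over the list, endothelial cells had 204 to 1064 CPM, satellite glia 35.3 to 83.7 and neurons 19.8 to 36.7. The UMIs lay in a minority of cells, since 33 of the 56 cells had 0 of the 14 genes, 2 had 1 or 2 and 21 had 3 or more, with up to 9 genes and 32 UMIs in a cell. Sample1 to Sample5 had 2, 6, 7, 5 and 1 of the 21 cells. They had means of 8.33 UMIs of Pecam1 and 64.9 of Cldn5, against 8.29 and 71.7 in the other 35, and a median of 17371 UMIs per cell against 16479. Gja4 had UMIs in 14 of the 21 and 7 of the 35 cells, Nr2f2 in 12 and 4, Mgp in 13 and 5, and Bmx in 9 and 19.

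Without these 21 cells, a choice made after the data were seen, 1533 of 11612 tested genes were higher than in all other cells. Against satellite glia 727 of 3539 were higher. With all cells these were 1798 of 11838 and 869 of 4046. Sample1 lost 2 of its 3 cells by this choice. Against all other cells, 4 named genes turned direction. Rgs5 and Pdgfrb are in the list that chose the cells left out, so their fall follows from that choice. Rgs5 went from 2.28 to -2.49 on the log2 scale, Pdgfrb from 2.17 to -1.78, Ifitm1 from 4.25 to -1.64 and Ednrb from 2.34 to -0.18. Nr2f2 went from 1.48 to 0.10 and was no longer called. With all cells, Pdgfrb was not called without Sample1 (1.74), Sample2 (1.98) or Sample5 (2.39), and Vtn, for vitronectin, not without Sample1 (6.97) or Sample3 (6.98). The contractile genes Acta2, Myh11 and Tagln of smooth muscle had UMIs in 2 cells each, and Cspg4 and Cnn1 had 0. Whether the 21 droplets held a mural cell as well was not tested.

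RNA of satellite glia was found in every endothelial cell, with 3 to 11 of the 12 glial genes and 21 to 1418 UMIs per cell. Of these 12 genes, 11 were tested in each comparison. Against satellite glia 9 were lower and 1, the glutamine synthetase gene Glul, higher, at 1.11, or 0.87 without Sample3, with a median of -3.00. Against all other cells 3 were higher and 1 lower, with a median of 1.05. The list summed to 3003 to 17148 CPM in endothelial cells and 84089 to 107589 in satellite glia. Apoe, for apolipoprotein E, had 635, 4409, 1791, 526 and 12492 CPM in endothelial cells against 78916 ± 9199 in satellite glia (SD, n = 5). Sample5 was the highest, and a single cell held 1189 of its 1352 Apoe UMIs, without which the library had 1785 CPM. Fabp7, a fatty acid binding protein of satellite glia, had 5 or more UMIs in 7 of the 56 cells, of which 5 were among those with mural genes. In these 7 cells the median of Apoe was 240 UMIs (24 to 1189), in the other endothelial cells 9 (1 to 97) and in satellite glia 1467 (103 to 3113).

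Haemoglobin transcripts stood out in 2 cells, with 1296 UMIs in a cell of Sample3 and 3354 in a cell of Sample4. Hbb-bs, an adult beta globin gene whose reads may be shared with Hbb-bt, had 0, 3.31, 3393, 10406 and 0 CPM. Without these cells Sample3 and Sample4 had 15.8 and 16.2 CPM over the 5 red blood cell genes, of which 0 of 3 tested were called. In another fit the 9 cells with 5 or more Fabp7 UMIs or at least 100 haemoglobin UMIs were left out. They were also chosen after the data were seen. Without these 9 cells, 1837 of 11756 tested genes were higher than in all other cells and 849 of 3835 higher than in satellite glia. Against all other cells 6 named genes lost their higher call, Clec14a (9.83), Ednrb (1.37), Ehd2 (2.93), Nr2f2 (1.18), Pdgfrb (2.14) and Vtn (7.26). Against satellite glia Slc16a1 lost its lower call (-1.09), and 9 called named genes had too few counts to be tested.

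Markers of leukocytes and fibroblasts were rare. Of 12 leukocyte genes in the matrix, Csf1r, C1qa, C1qb, C1qc and Mrc1 had 0 UMIs in all 56 cells, 0 of 2 tested were called, and the sum of the list was 0 to 1201 CPM, the highest in Sample5, which had 75.3 CPM without 1 cell. Cd74 had 0, 3.31, 81.2, 49.6 and 859 CPM. All 93 Cd74 UMIs of Sample5 lay in that cell, the same that had 0 UMIs of Cldn5. The 8 fibroblast genes in the matrix summed to 9.93 to 838 CPM, with 0 of 4 tested called against all other cells, and 2 of 3, Col1a2 and Lum, lower than in satellite glia. A single cell of Sample3 held 224 of the 227 fibroblast UMIs behind the highest sum. Neuronal genes were lower than in all other cells in 15 of 15, with sums of 566 to 3446 CPM in endothelial cells, 2748 to 4127 in satellite glia and 33668 to 36602 in neurons. Against satellite glia 1 of 9 tested, Sncg, was lower. Every endothelial cell had UMIs of at least 4 of the 15 neuronal genes, with a median of 26 UMIs.

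**Figure D5:**
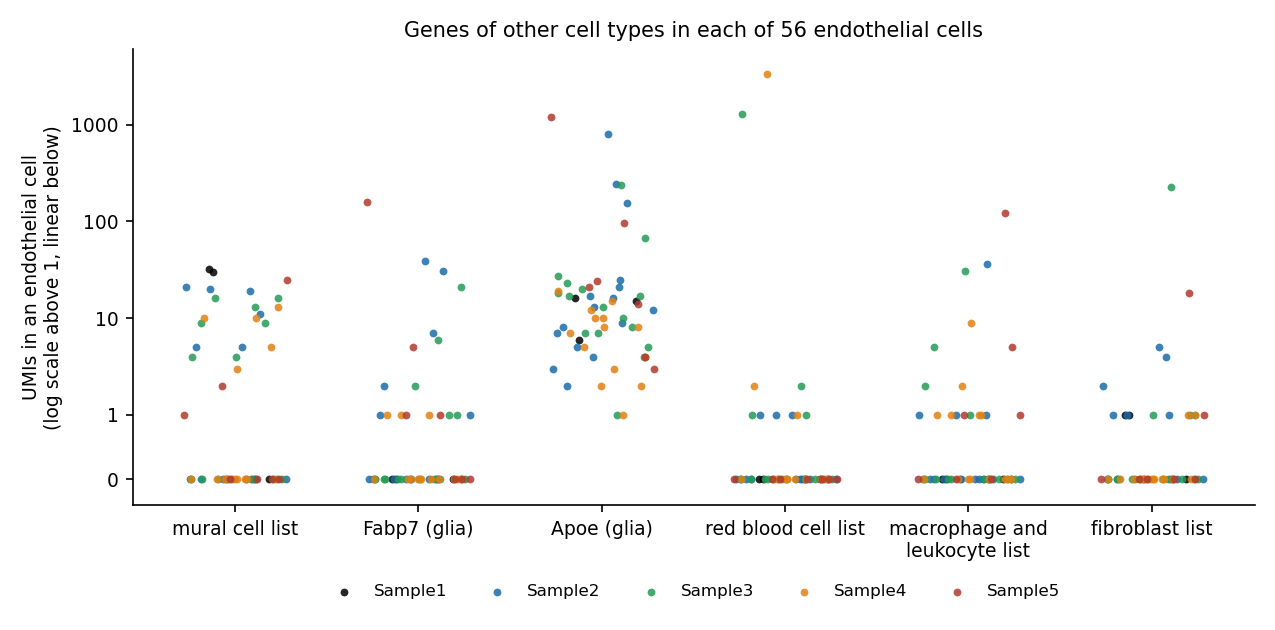
UMIs of genes of other cell types in each of the 56 endothelial cells, coloured by library, on a scale that is linear near 0 and logarithmic above. Mural genes were at 0 in 33 cells and reached 32 UMIs, Apoe ranged from 1 to 1189 UMIs, and haemoglobin genes passed 100 UMIs in 2 cells.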

How the data were processed

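Single-cell RNA-seq was made from the lumbar dorsal root ganglia of 5 mice. The authors aligned reads with Cell Ranger to mm10, clustered and named the cells with Seurat, and deposited raw counts of UMIs per gene and cell together with the name of each cell. From these counts, UMIs were summed per library over endothelial cells, all other cells and satellite glia. Of 17271 rows, 4 name no mouse gene (143 UMIs, 6.3682e-05% of the total, 0 of them in endothelial cells) and were left out. Sums were tested with edgeR 4.0.16 (TMM, filterByExpr, quasi-likelihood test, Benjamini-Hochberg adjustment) in R 4.3.3 with limma 3.58.1. Python 3.11.15, numpy 2.4.6, scipy 1.17.1 and pandas 2.3.3 made the other values. The p-values measure the spread between 5 libraries. Doublets were not called by a tool, and cells kept their deposited names.

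The sums compared come from the same mice and are thus paired by design. Same-library sums deviated together weakly, with correlations of -0.00933 to 0.117 (all other cells) and 0.0202 to 0.191 (satellite glia) over the 5 libraries. The tests were fitted without the replicate block, which was an alternative. Other alternatives were DESeq2 1.42.0, no filter on low counts, no minimum share of cells with a UMI, an adjusted p under 0.05, each library left out, sums of at least 10 cells, no cells above 10% mitochondrial UMIs or above 3 times the median UMIs, and, chosen after the data were seen, no cells with mural, Fabp7 or haemoglobin RNA.

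The genes named are the 5 markers, in each comparison the 15 called genes with the largest log2 fold change that were higher in 5 of 5 libraries and the 5 with the most negative one that were lower in 5 of 5, the 15 genes highest in endothelial cells without mitochondrial and ribosomal protein genes, and members of the gene lists, of which 1 is not reported here. Single cells and their genes were named after their values were seen. The cells, lists and tests were chosen with earlier results of these data known. Counts were also simulated with 200 genes changed 4-fold. The test recovered 92.5% of them against all other cells (11552 genes, 6 false calls). Against satellite glia it recovered 78% (3955 genes, 1 false call). These rates hold only for the spread between libraries and the genes set in the simulation. Recovery and false calls at the spread of the real endothelial sums were not tested. Real calls on the higher side also needed UMIs in a minimum share of cells.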

Additional observations from a re-analysis of the deposited data

Results flagged for a closer look

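Of 37 values examined over the 5 libraries, 9 had 1 library far from the others, measured by its gap to the nearest library over the whole range. By chance this is expected of about 1 in 20 groups of independent, equally precise values. Several values here share genes or cells, and the libraries held 3 to 16 endothelial cells, so the 9 cannot be set against that rate. Sample2 was high in the median mitochondrial share of endothelial cells, at 4.54%. Sample1, with 3 cells, was high in the summed mural genes, at 1064 CPM, and in Kcnj8, at 309 CPM. Without the cell with the most of these UMIs, the mural genes summed to 827 CPM and Kcnj8 stood at 248 CPM.

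Sample5 was high in the summed macrophage and leukocyte genes at 1201 CPM, in Cd74 at 859 CPM and in Plvap at 471 CPM. Without the cell with the most UMIs of each, these were 75.3, 0 and 269 CPM. Sample3 was high in the summed fibroblast genes at 838 CPM, with 12.2 CPM without 1 cell. Sample4 was high in the summed red blood cell genes at 16667 CPM, with 16.2 CPM without 1 cell, and in Dll4 at 169 CPM, which stood at 149 CPM without the cell with the most UMIs of it.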

How the results depend on the processing

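The number of genes lower than in satellite glia moved from 901 to 1690 with no filter on low counts, with 14699 instead of 4046 genes tested. The share of endothelial cells, 2.08% on average over the 5 libraries, became 18.7% of endothelial cells and satellite glia together. Without each library in turn, 1661 to 1884 genes were higher and 3484 to 3654 lower than in all other cells, and 716 to 940 higher and 839 to 1033 lower than in satellite glia. The share then ranged from 1.76 to 2.48%, and the log2 ratio of UMIs per cell from -0.15 to -0.09 to satellite glia and from -2.08 to -2.02 to neurons. Without the cells with 3 or more mural genes, the log2 fold changes against all other cells turned to -0.18 for Ednrb, -1.64 for Ifitm1, -1.78 for Pdgfrb and -2.49 for Rgs5, of which Pdgfrb and Rgs5 are in the list that chose those cells, so that their turn follows from the choice. With the library as replicate block, pairing the sums of a mouse, 1761 genes were higher and 3783 lower than in all other cells, and 868 higher and 882 lower than in satellite glia. Among the named genes reported here the block ended the call of Pacsin2 (-1.39 against satellite glia) and added Hsp90aa1 (1.01 against satellite glia). Of the called named genes, 200 of 227 against all other cells and 125 of 160 against satellite glia kept their call under all 15 alternatives. The median log2 fold change moved by over 0.1 also with no filter (-0.13 and -0.29), without Sample5 (0.16, all other cells) and without Sample3 (-0.21, satellite glia). With 56 cells, 3 of them in Sample1, genes found in few cells could not be compared.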
